A study of Saccharomyces cerevisiae with 16 samples.

Results

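Tandem promoters of budding yeast were searched for transcripts that leave the promoter on the strand opposite to the gene. Of 6002 annotated protein-coding genes of Saccharomyces cerevisiae in the R64 build, 2877 have their nearest upstream neighbour on the same strand. For each, the window was the 500 nt before the start codon, read on the opposite strand. A window was kept when no annotated gene on that strand overlapped it or lay within 1000 nt of it, which removed 684 genes and left 2193 windows. These windows were chosen by annotation alone, without any measured value. Their nearest upstream neighbour was a protein-coding gene in 2072 cases, a tRNA gene in 93 and a snoRNA gene in 14. The gap to that neighbour had a median of 415 nt, and in 1398 windows it was under 500 nt, so that part of the window lay within the neighbour and a tag there was antisense to it. Neighbouring windows overlapped in 35 pairs, which share tags.

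A promoter in yeast chromatin is a nucleosome-depleted region, and RNA polymerase II can start at either edge of it, toward the gene and away from it. Most RNA made in the upstream direction is ended early by the Nrd1-Nab3-Sen1 complex and degraded by the nuclear exosome, and part of the rest escapes to the cytoplasm, where Xrn1 degrades it. A method that reads poly(A) tails sees only the polyadenylated RNA that remains. At tandem genes an upstream transcript also runs against the end of the neighbouring gene, so an antisense transcript of the neighbour and a divergent promoter transcript cannot be told apart by a 3′ end alone.

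The RNA was read with 3′T-fill, which sequences the last bases before the poly(A) tail and so gives a 3′ end position and strand for each tag. All libraries came from strain BY4741, a haploid of mating type a (Mat a) with deletions in HIS3, LEU2, URA3 and MET15 (his3Δ1 leu2Δ0 ura3Δ0 met15Δ0), grown in rich medium (YPD) at 30 °C. Single cells were enclosed in alginate particles, at most 1 cell per particle, and grew there into microcolonies. The groups were fixed unsorted particles (total, 3 libraries), fixed particles with big colonies (big, 3) or small colonies (small, replicates 2 and 4) sorted by size, unsorted particles without ethanol fixation (nofix, 2), and the same strain grown in batch without particles at Abs600 0.5 (YPD05, 2) and Abs600 2 (YPD2, 2). The labels name no ethanol fixation for the batch cultures. The 14 libraries held 1506960 to 7871184 tags. At 1587 isolated genes, 93.0% to 98.4% of the tags lay on the transcript strand. This share was 94.3% and 95.1% in the unfixed libraries and 93.0% in small replicate 4. In the other main libraries it was 97.5% to 98.4%, so the unfixed libraries and small replicate 4 had more opposite-strand tags at these genes too.

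The windows held 335457 tags of the 14 libraries at 26078 positions. Small replicate 4 stood apart before any comparison was made. It alone had its barcode in a dedicated read, its sample type label names unfixed particles while its title and description name small fixed colonies, and it held 141097 of the window tags. In it 39.2% of window tags ended on an A in the genome, against 1.72% to 14.2% in the other 13 libraries. LEU2, deleted in this strain, had 519 tags in it (50.87 CPM) against 0 to 7 in each other library (at most 4.928 CPM). The alpha-cell gene STE3 had 83 tags against 0 to 6. The other deleted genes did not follow LEU2. HIS3 was at 32.05 CPM in it against 100.2 to 701.3 in the other 13 libraries, and URA3 at 8.234 against 0.3489 to 52.34. MET15, annotated as MET17, had 3 tags in it and 0 in the others. The 2 alpha-cell genes matched by name, STE3 and SAG1, summed to 80.1 and 28.1 CPM in small replicates 2 and 4 and to 0.272 to 12.8 in the other 12 libraries, against 428 to 2524 CPM for 6 a-cell genes. The part of this in the results was not tested. The other small library, replicate 2, held tags at only 845 window positions, with 16.7 tags at each on average. Over the 947 windows tested, log2 levels of the 2 small libraries had a Pearson correlation of 0.292 (a description over windows, which share the libraries), the unfixed pair 0.497, and pairs within the other groups 0.481 to 0.718. Small replicate 2 was closer to each fixed unsorted and big library, at 0.315 to 0.396, than to replicate 4. With the unfixed and batch libraries it had 0.17 to 0.361. Replicate 4 had at most 0.284 with any library outside its group. Results on small colonies that turn or move widely without replicate 4 are therefore given without it too.

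The sequences at the main 3′ ends carry what the reads can show of these transcripts, so they are given first, for the 6 windows with the highest mean level and for 1 window per direction in each comparison that passed the test. They were read from the RefSeq R64 genome, 5′ to 3′ on the strand of the tags, 50 bases up to and including the 3′ end with the highest mean level and 10 bases after it. The base at the 3′ end is in capitals, and so is any TATATA, the efficiency element of yeast polyadenylation signals. Each name is that of the gene downstream of the promoter. The windows of MFT1 (chrXIII:148942-149001, plus strand), MST27 (chrVII:403372-403431, minus), AAH1 (chrXIV:359341-359400, minus), INH1 (chrIV:134729-134788, minus), PLS1 (chrXIV:441318-441377, plus) and VHR1 (chrIX:249630-249689, minus) had the highest levels.
MFT1: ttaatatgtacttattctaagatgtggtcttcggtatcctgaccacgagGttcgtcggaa
MST27: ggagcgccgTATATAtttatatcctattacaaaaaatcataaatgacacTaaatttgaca
AAH1: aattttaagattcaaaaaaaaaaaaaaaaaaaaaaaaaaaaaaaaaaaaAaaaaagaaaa
INH1: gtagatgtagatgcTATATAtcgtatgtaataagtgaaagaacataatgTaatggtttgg
PLS1: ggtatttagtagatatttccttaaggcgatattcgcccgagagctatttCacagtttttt
VHR1: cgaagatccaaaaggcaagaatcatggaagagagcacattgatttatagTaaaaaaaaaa

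The windows of GTO3 (chrXIII:772674-772733, minus), HNM1 (chrVII:364327-364386, plus), ERG25 (chrVII:610319-610378, minus), RPF1 (chrVIII:281179-281238, minus), THI72 (chrXV:700713-700772, plus) and VAC7 (chrXIV:525718-525777, minus) stand for the comparisons below.
GTO3: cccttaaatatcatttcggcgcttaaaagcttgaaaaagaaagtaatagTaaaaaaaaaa
HNM1: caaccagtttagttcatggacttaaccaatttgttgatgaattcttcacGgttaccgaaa
ERG25: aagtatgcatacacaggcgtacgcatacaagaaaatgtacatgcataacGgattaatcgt
RPF1: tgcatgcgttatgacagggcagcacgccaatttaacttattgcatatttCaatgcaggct
THI72: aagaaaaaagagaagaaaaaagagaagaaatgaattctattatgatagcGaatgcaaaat
VAC7: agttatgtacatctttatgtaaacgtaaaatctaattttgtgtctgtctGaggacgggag

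Among these 12 ends, MST27 and INH1 have TATATA within the 50 bases shown. The ends at VHR1 and GTO3 lie directly before a run of A in the genome, and the end at AAH1 lies inside a long one. A genomic run of A can be read by an oligo(dT) primer as if it were a poly(A) tail. An A-rich position was taken as one followed by at least 6 A in the next 10 genome bases on the tag's strand. By that measure 55.2% of the tags in the AAH1 window, 52.0% in the GTO3 window and 79.8% in the VHR1 window were at A-rich positions, against 1.64% in the INH1 window and 2.41% in the MST27 window. Its part in the results was not tested beyond the values given below without such positions.

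Upstream 3′ ends were found throughout the window and were fewer in the last 50 nt before the start codon and inside the gene. The median distance of a window tag from the start codon was 257 to 316 nt in the 14 libraries. Over the 947 tested windows, the main 3′ end lay at a median of 299 nt, with quartiles of 177 and 405 nt. Opposite-strand tags in the window were 2.94 to 8.67 times as many as in the first 500 nt of the gene. The lowest ratios were those of the unfixed particles, 3.05 and 2.94, and the highest those of the small colonies, 6.90 and 8.67. Against the next 500 nt upstream, the windows held 1.01 to 2.54 times as many tags in 12 libraries and 0.86 and 0.78 times as many in the unfixed particles. In most windows that farther stretch lies inside or beyond the neighbour. By the rule that chose the windows, it holds no annotated gene of the opposite strand.

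**Figure D1:**
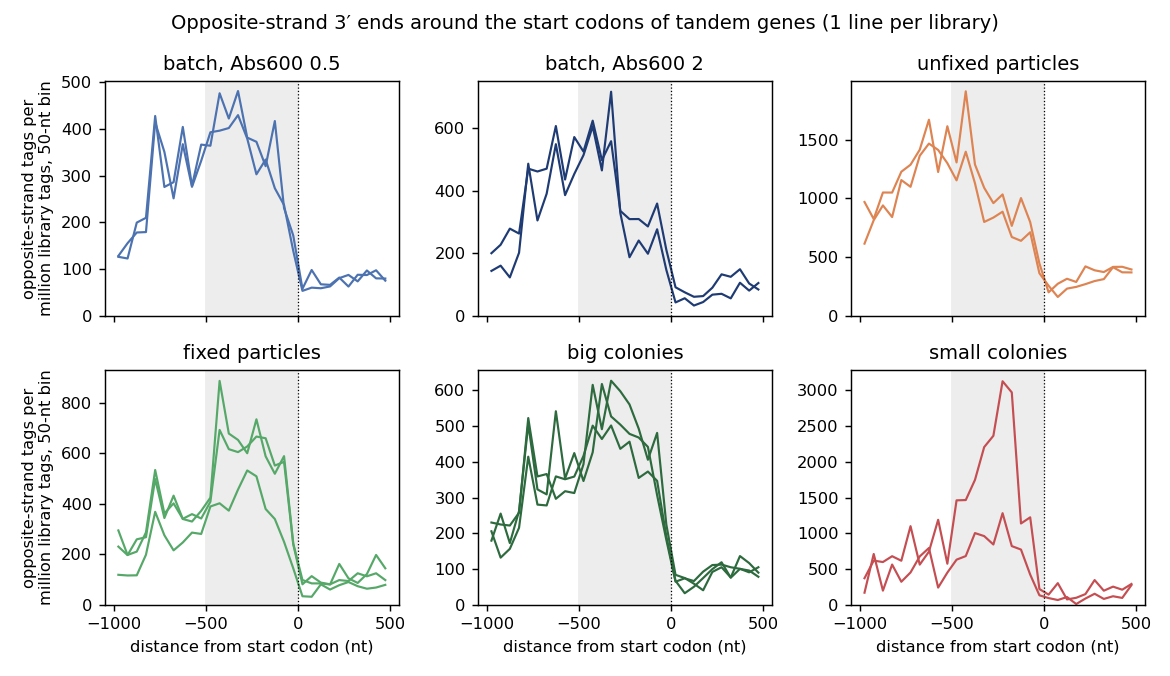
Opposite-strand 3′ end tags, scaled to library totals, in bins of 50 nt, from 1000 nt before to 500 nt after the start codons of the 2193 genes, with 1 line per library and 1 panel per group; the grey band is the 500 nt window. In each panel the lines drop at the start codon, and in the unfixed particles they stay high through the stretch beyond the window, where the window holds 0.86 and 0.78 times the tags of that stretch.

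The stretch before the main 3′ end had fewer of the letters known from mRNA ends than the ends of mRNAs had. TATATA, searched on the tag's strand in the 60 nt up to the 3′ end, was found in 181 of 947 windows (19.1%), against 34.0% of 5508 mRNA ends and 8.6% of all 60 nt stretches of the windows. AATAAA, an A-rich positioning letter string, was found in 11.7% of windows, 15.3% of mRNA ends and 7.7% of all stretches. The Nrd1-type tetramers GTAG and GTAA were found in 15.4% and 27.1% of windows, against 15.2% and 25.6% of all stretches. The Nab3-type tetramers CTTG and TCTT were found in 20.1% and 32.7%, against 22.2% and 37.4%. The 60 nt before window ends were 67.1% A and T, mRNA ends 72.7% and whole windows 64.2%, so base composition differs between the sets as well. These are matches of letters and not sites.

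Single windows were low. The mean over the 14 libraries, in CPM (tags per 1000000 tags, with the library size scaled by TMM), was under 1 in 1107 windows, 1 to 5 in 798, 5 to 20 in 234 and at least 20 in 54. The 54 highest windows held 31.5% of the summed mean CPM. No tag was found in 132 windows, which leaves 2061 with at least 1, and 123 windows had tags in every library. The filter on low counts left 947 windows for testing; a window that passed it through only 1 group had to be high there. The sense level of the downstream genes had a median of 38.9 CPM, against 0.981 for the windows, and the window was above its own gene in 150 of 2193 cases. Among the 947 tested windows the level of the window and the sense level of its gene had a Spearman correlation of -0.086, and with the sense level of the neighbour 0.043 over 912 windows with a coding neighbour (descriptions over windows of the same libraries).

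The 12 highest windows ranged from 134 CPM at MFT1 to 45.8 CPM at COG1, and the next window had 43.4 CPM. MFT1 encodes a subunit of the THO complex of transcript elongation and mRNA export, and 99.7% of the tags in its window lay within the neighbour PIF1, a DNA helicase gene, so they were antisense to PIF1. Its level was 91.3 and 99.3 CPM at Abs600 0.5, 415 and 225 at Abs600 2, 109 and 109 in unfixed particles, 85.4, 78.0 and 53.0 in fixed particles, 111, 153 and 67.1 in big colonies, and 284 and 1.57 in small replicates 2 and 4. Both libraries at Abs600 2 were above both at Abs600 0.5, but the difference did not pass the test (log2 1.75, SE 1.13; Benjamini-Hochberg adjusted p = 1.0, edgeR quasi-likelihood test). MST27 encodes a membrane protein of vesicle formation and has a near-identical copy in the genome. With libraries weighted equally, 67.7% of its window's level was at 1 position, 305 nt before the start codon. The MST27 window had 36.1 and 55.6 CPM at Abs600 0.5, 92.5 and 145 in unfixed particles, and 56.2 to 122 in big colonies. MST27 itself was at 0.59 ± 0.162 CPM (SD, n = 2) at Abs600 0.5 and at 0 in both unfixed libraries, so the window was above its own gene in each of those 4 libraries. Because of the near-identical copy, the assignment of tags to MST27 itself is less certain.

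INH1, the inhibitor of the mitochondrial ATP synthase, had 71.5% of its window's level at 1 position, 440 nt before the start codon. That position lies just outside the neighbour LYS20, a lysine biosynthesis gene, with 2.37% of the window's tags inside LYS20. Its window varied widely within some groups: fixed particles had 233, 12.1 and 119 CPM, and big colonies 17.1, 57.8 and 131. The batch libraries had 32.8 to 52.1 CPM, and both small libraries, at 2.59 and 7.74, were below the other 12. The window of COG1, a gene of Golgi trafficking, likewise had 11.1, 191 and 42.0 CPM in the 3 libraries of fixed particles. VHR1, an activator of biotin-responsive genes, has a tRNA gene as neighbour, and its window ranged from 13.6 to 142 CPM with no order by group. The windows of YNL195C and PRY1, a sterol-binding protein gene, had 95.8% and 63.1% of their tags at A-rich positions. No gene-strand tags lay within 5 nt of the main end in the windows of MFT1, MST27, AAH1, INH1, PLS1, VHR1, YNL195C and COG1, while MNN4 had 11 there, MET2 5, GTO3 4 and PRY1 1. Among the further windows called in the comparisons below, ZWF1 had 17 such tags beside 35 opposite-strand tags at its main end. SPO1 had 43 beside 161, YGL230C 12 beside 234, RPL5 8 beside 253 and POP2 2 beside 374. The rest of those windows had none.

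**Figure D2:**
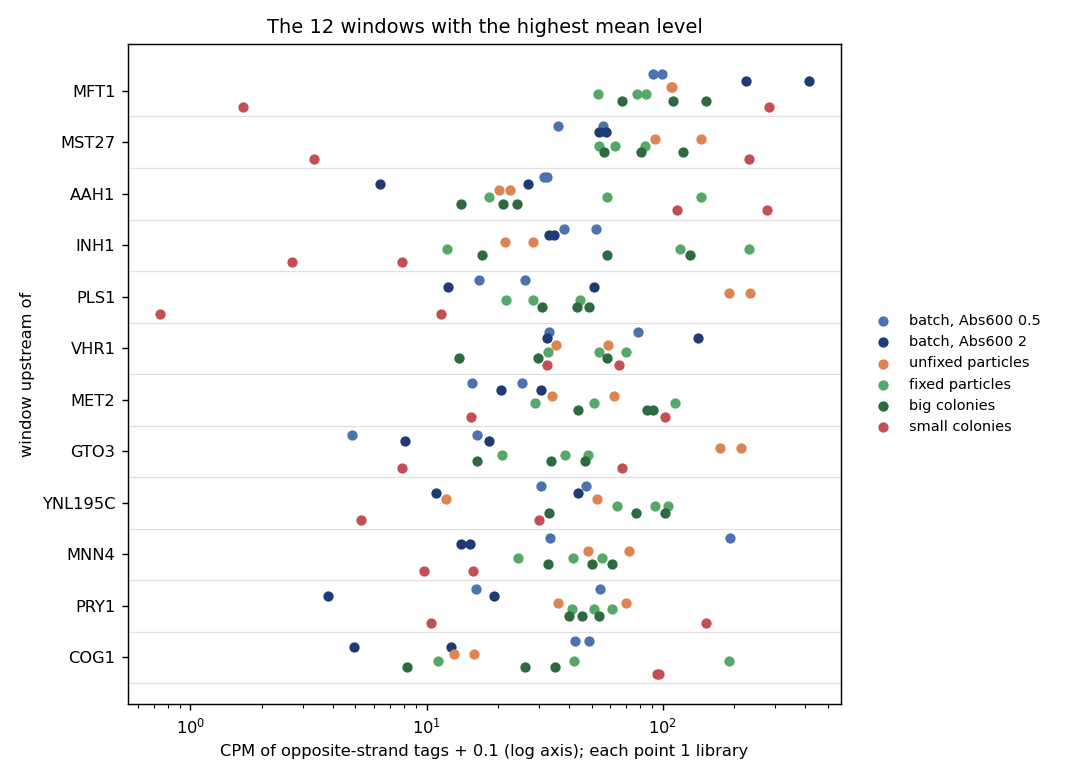
Level of the 12 highest windows in each of the 14 libraries, as CPM + 0.1 on a log axis, 1 point per library coloured by group. The windows upstream of GTO3 and PLS1 have both unfixed libraries above all others, and the small libraries are spread widely, as at MFT1 with 284 and 1.57 CPM.

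Summed over all windows, opposite-strand tags were 0.329% and 0.364% of the library at Abs600 0.5 and 0.368% and 0.401% at Abs600 2. Unfixed particles had 1.06% and 0.858%, fixed particles 0.592%, 0.378% and 0.563%, and big colonies 0.430%, 0.404% and 0.489%. Small replicate 2 had 0.755% and replicate 4 had 1.79%. The unfixed and the small libraries were thus above all others, fixed particles and big colonies overlapped, and all 6 of these fixed libraries except 1 were above the batch cultures. The exception was fixed particles replicate 2, at 0.378%. In bulk RNA, fewer cells that make a transcript and less of it per cell cannot be told apart. The sums are given as a description, with no test.

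**Figure D3:**
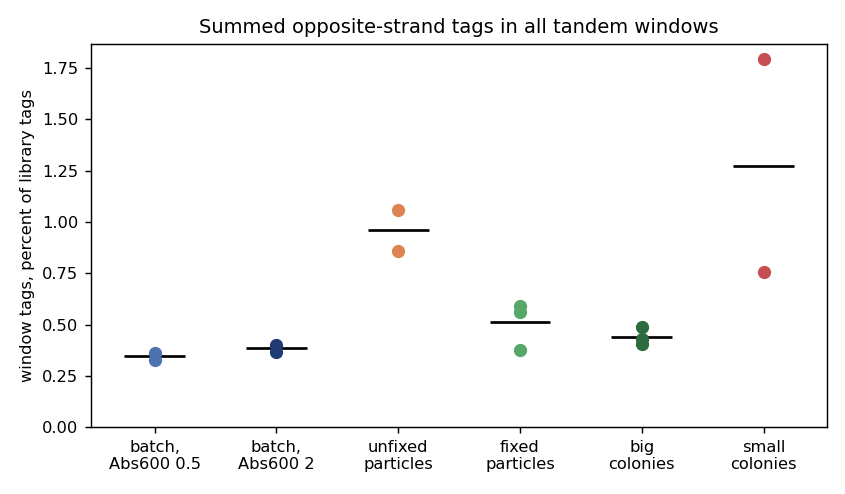
Opposite-strand tags summed over the 2193 windows, as percent of all tags of a library; each point is 1 library and the line is the group mean. The 2 unfixed libraries lie at 1.06% and 0.858%, above every batch, fixed and big library, and the 2 small libraries lie at 0.755% and 1.79%.

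Unfixed particles were first compared with batch culture at Abs600 0.5, which sets growth as colonies in alginate against growth in suspension. The summed windows were 2.77 times as high in unfixed particles (0.959% ± 0.143, SD, n = 2, against 0.346% ± 0.0248, SD, n = 2). Outside the windows the ratio was larger: it was 4.38 in the 500 nt farther upstream and 4.23 in the first 500 nt of the genes. Within the windows it was 4.26 at positions inside the neighbour and 2.31 at positions between genes. The higher level was thus found outside the promoter-proximal stretch as well. Of the 947 tested windows, 628 had a positive and 288 a negative fitted log2 fold change, with a median of 1.19, against -0.09 over the 5527 genes tested on the sense strand. Past the threshold, a Benjamini-Hochberg adjusted p under 0.05 over 6474 features in the edgeR quasi-likelihood test, 1 window rose and 1 fell, while 111 had an unadjusted p under 0.05. DESeq2, with its own scaling, called 31, of which 26 rose and 5 fell. Of all features, 0.649% rose and 1.1% fell, so the windows' 0.106% in each direction was below the background. None of the 947 was called when any 1 of the 4 libraries was left out, and 39 were called, 33 up and 6 down, when the small libraries were left out of the fit.

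The window that rose was that of GTO3, an omega-class glutathione transferase gene. It had 4.75 and 16.2 CPM at Abs600 0.5 and 216 and 175 in unfixed particles, with no overlap (log2 4.24, SE 1.00; Benjamini-Hochberg adjusted p = 0.0371, edgeR quasi-likelihood test). Fixed particles had 38.4, 20.8 and 48.1 CPM there, below both unfixed libraries, and that difference did not pass (adjusted p = 0.0897 by the same test). Its neighbour GAD1, the glutamate decarboxylase gene, rose on its own strand from 25.4 ± 1.07 to 806 ± 156 CPM (SD, n = 2 each; log2 4.99, SE 1.05, adjusted p = 0.0188 in the same edgeR test). GTO3 itself had no tags at Abs600 0.5, and its level with its SD in the unfixed pair (n = 2) was 14.2 ± 15.1 CPM (adjusted p = 0.193 by edgeR). Without A-rich positions the log2 fold change of the window was 4.41 and no longer passed.

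The window that fell was that of HNM1, the choline transporter gene. It had 49.4 and 27.5 CPM at Abs600 0.5, and 1 tag in each unfixed library, 2 in all. The ratio of group levels was 94.4, with a 95% counting interval of 25.7 to 787 (adjusted p = 0.0314 in the same edgeR test). Such intervals cover counting error only. In this window 87.2% of the tags lay inside RPL7A, a ribosomal protein gene that has a near-identical copy, so their assignment is less certain. RPL7A itself was at 1963 ± 659 and 392 ± 8.13 CPM (SD, n = 2 each) in the same libraries, a difference that did not pass (adjusted p = 0.0695). HNM1 was at 119 ± 13.4 and 104 ± 2.05 CPM (SD, n = 2 each). The 3′ end shown above for HNM1 is 460 nt before its start codon.

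**Figure D4:**
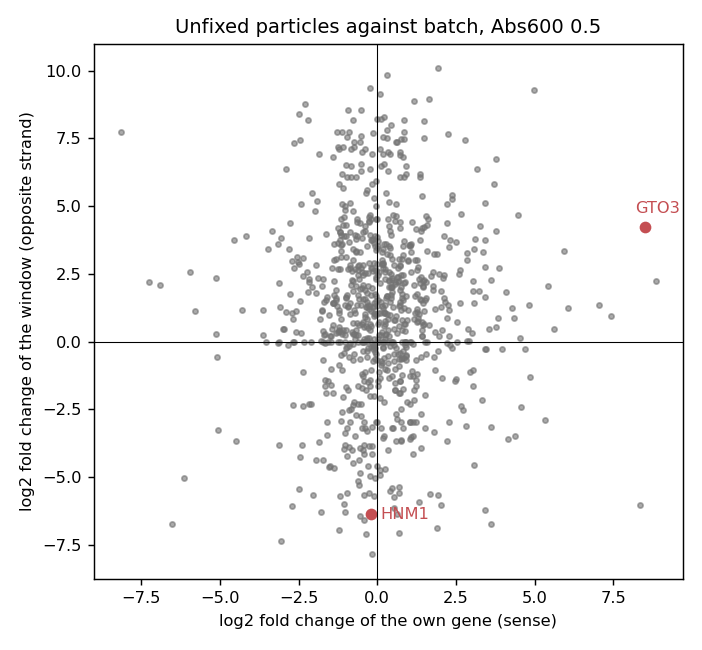
Fitted log2 fold change, unfixed particles against batch culture at Abs600 0.5, of each tested window (vertical) and of its own gene on the sense strand (horizontal); 1 point is 1 window. The 2 windows past the threshold, GTO3 and HNM1, are marked, and the Pearson correlation over the 896 windows is 0.004.

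The effect of ethanol fixation was examined by setting fixed unsorted particles against the unfixed ones. Both comparisons use the same unfixed libraries, so a reversal between them is no second result. The summed windows were 0.533 times the unfixed level in fixed particles (0.511% ± 0.116, SD, n = 3). The ratio was again farther from 1 outside the windows, 0.252 in the 500 nt farther upstream and 0.296 inside the genes. Positions between genes had 0.672 and positions inside the neighbour 0.293 times the unfixed level. Of 947 windows 376 had a positive and 565 a negative log2 fold change, with a median of -0.68 against 0.09 for the genes. Past the threshold 3 windows rose and 9 fell (0.317% and 0.95%; edgeR quasi-likelihood test, Benjamini-Hochberg), where 3.04% of all features rose and 2.01% fell. Both shares of windows were below those of all features. Without 1 library the counts were 0 and 1 (unfixed replicates 1 and 2) and 2, 2 and 4 (fixed replicates 1, 2 and 3).

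Among the windows lower in fixed particles, those of RPF1 and NSE3 were at 0 tags in all 3 fixed libraries. RPF1 encodes a protein of large ribosomal subunit assembly, and its window had 44.1 and 20.3 CPM in unfixed particles, at least 97.9-fold higher with 3 tags over the fixed group as the floor (adjusted p = 0.026, edgeR quasi-likelihood test, Benjamini-Hochberg). The bound was 43.6-fold without fixed replicate 1 and 61.6-fold without unfixed replicate 1. The window was at 0 to 0.704 CPM in the batch libraries and at 0 in big and small colonies, and 87.7% of its level was at the position printed above. The neighbour RTC3 changed in the same direction on its own strand, from 878 ± 12.8 (SD, n = 2) to 2.85 ± 0.832 CPM (SD, n = 3; log2 -8.25, SE 0.78, adjusted p = 3.78e-05 by edgeR). RPF1 itself was at 99.5 ± 0.997 and 283 ± 69.6 CPM and did not pass. The NSE3 window, upstream of a gene of the Smc5-Smc6 complex, had 24.8 and 15.96 CPM in unfixed particles, at least 62.0-fold higher (adjusted p = 0.0222) and at least 27.6-fold without fixed replicate 1, with 98.3% of its tags inside INM2, an inositol monophosphatase gene.

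The windows of ZWF1, PYC1 and PLS1 fell as well. That of ZWF1, which encodes the first enzyme of the pentose phosphate pathway, had 28.3 and 10.4 CPM in unfixed particles and 2 tags in the 3 fixed libraries (ratio 88.1, counting interval 23.7 to 739, adjusted p = 0.0417 by edgeR); the ratio was 47.2 without unfixed replicate 1. That of PYC1, pyruvate carboxylase, had 21.8 and 26.8 CPM against 0.594, 0 and 0.344 (log2 -5.86, SE 1.64, adjusted p = 0.0491 by edgeR), and log2 -6.53 without fixed replicate 1. The PLS1 window, the highest of those called, had 192 and 235 CPM in unfixed particles and 44.8, 21.7 and 28.2 in fixed ones (log2 -2.75, SE 0.77, adjusted p = 0.0472 by edgeR); 51.9% of its tags lay inside PHO23, a gene of the Rpd3 histone deacetylase complex. In each of these the libraries of the groups did not overlap.

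The windows of AIM19 and YIL086C overlap and count largely the same tags, so they are 1 observation. The AIM19 window had 108 and 114 CPM in unfixed particles and 7.72, 3.47 and 12.4 in fixed ones (log2 -3.78, SE 0.83, adjusted p = 0.0131 by edgeR). At Abs600 2 it had 44.7 and 75.3 CPM, above the 7.13 and 12.7 at Abs600 0.5, without passing the test there. Of its tags, 4.46% lay inside YIL086C and 87.0% inside the next gene, KTR7, a mannosyltransferase gene. The window of YNL277W-A, 94.9% within CAF120, a gene of the Ccr4-Not complex, had 67.2 and 19.8 CPM in unfixed particles and 2 tags in fixed ones (ratio 199, counting interval 54.3 to 1652). The ratio was 90.4 without unfixed replicate 1, 306 without unfixed replicate 2 and 347 without fixed replicate 2. The window of YHR007C-A had 174 and 112 CPM against 14.5, 26.9 and 12.4 (log2 -3.01, SE 0.69, adjusted p = 0.0157 by edgeR), and 61.9% of its tags were at A-rich positions.

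Higher in fixed particles were the windows of UPS3, HNM1 and ERG25. The UPS3 window, upstream of a gene of the mitochondrial lipid transfer family, had 17.4, 17.3 and 19.6 CPM in fixed particles and 1 tag in each unfixed library (ratio 42.1, counting interval 11.5 to 351, adjusted p = 0.0141 by edgeR). It had 10.9 and 11.3 CPM at Abs600 0.5. The HNM1 window had 19.6, 62.4 and 11 CPM in fixed particles (ratio 51.8 to the unfixed, counting interval 14.2 to 431, adjusted p = 0.019 by edgeR). ERG25 encodes a sterol C-4 methyl oxidase and has the snoRNA gene SNR48 upstream. Its window had 6.54, 7.80 and 3.44 CPM in fixed particles and no tags in the unfixed and the Abs600 0.5 libraries (at least 8.85-fold higher than unfixed, adjusted p = 0.0463 by edgeR). With unfixed replicate 1 or 2 left out the bound was 4.41-fold or 4.44-fold.

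**Figure D5:**
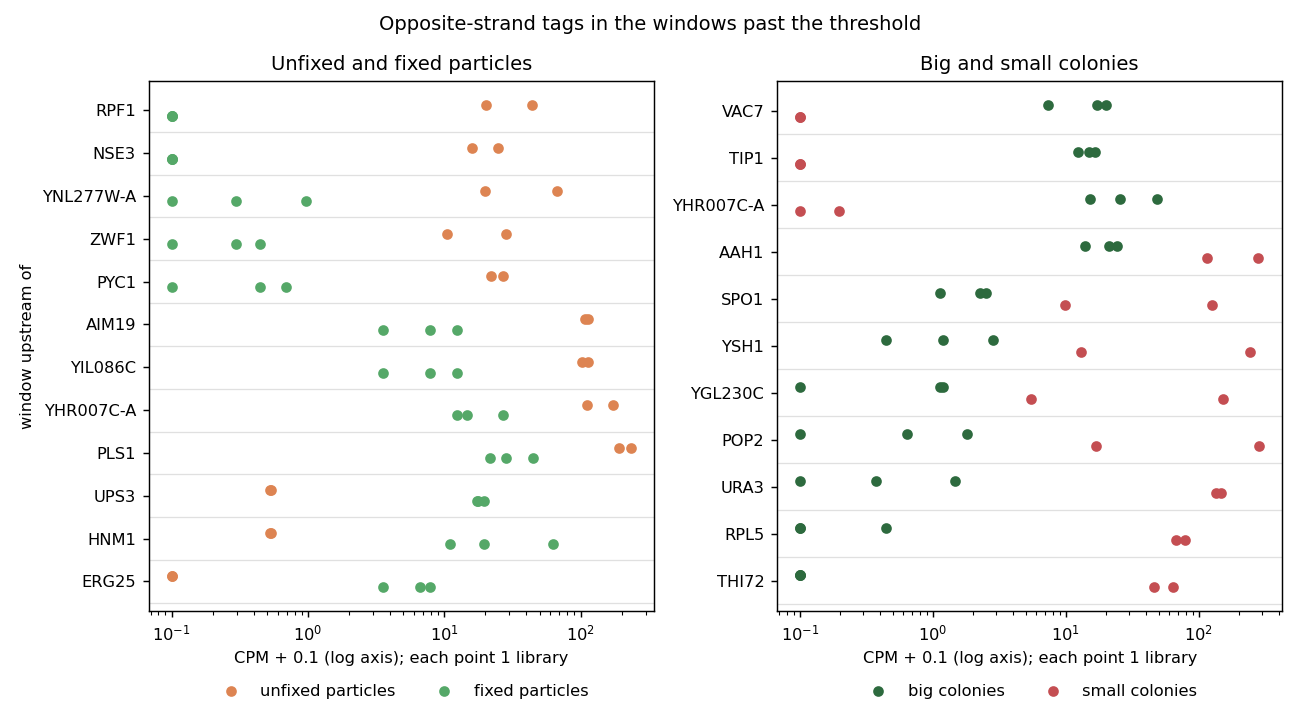
Levels of the windows past the threshold, as CPM + 0.1 on a log axis with 1 point per library: unfixed against fixed particles on the left, big against small colonies on the right. Points at the left edge are libraries with 0 tags, and in each row the libraries of the 2 groups do not overlap, as for the PLS1 window with 192 and 235 CPM against at most 44.8.

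Batch cultures at the higher density were compared with those at the lower. The summed windows were 0.384% ± 0.0237 (SD, n = 2) at Abs600 2, 1.11 times the level at Abs600 0.5, and 0.947 times at positions between genes. No window passed the threshold in the edgeR quasi-likelihood test, and neither did any gene: 0% of the features rose and 0% fell. At an unadjusted p under 0.05 there were 36 windows and 192 genes; DESeq2 called 1 window and 13 genes, and voom with sample quality weights called 4 windows and 70 genes. The MNN4 window, upstream of a gene of cell wall mannan phosphorylation, had 33.3 and 192 CPM at Abs600 0.5 and 13.96 and 15.1 at Abs600 2, with an unadjusted p = 0.0021 in the edgeR fit and an adjusted p of 0.923.

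Big colonies were compared with fixed unsorted particles, the mixture they were sorted from. The summed windows were 0.441% ± 0.0434 (SD, n = 3), 0.863 times the unsorted level, and the groups overlapped. No window or gene passed (0% up and 0% down of all features by edgeR; 19 windows and 52 genes at an unadjusted p under 0.05, and 0 of both by DESeq2 and by voom). The median log2 fold change of the windows was -0.20, and 0 for the genes. Windows as high as AAH1 and COG1 differed by log2 -1.91 (SE 0.71) and -1.80 (SE 0.82) with overlapping libraries and adjusted p = 1.0 in the edgeR test.

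Small colonies were compared with big ones, by title the contrast of colony size within fixed particles. The sample type label of small replicate 4 names unfixed particles, and its barcode alone came in a dedicated read. Colony size therefore cannot be told apart from these differences in that library. The summed windows were 2.89 times as high in the small libraries (1.27% ± 0.734, SD, n = 2), with a log2 ratio of 1.53, and 0.78 without replicate 4. The ratio was 1.90 in the farther upstream stretch and 1.83 inside the genes, and 1.496 and 1.267 there without replicate 4. With both small libraries the ratio was 3.21 at positions between genes and 1.695 inside the neighbour. Without replicate 4 these became 1.60 and 2.20, so the order of the 2 rests on that library. The median log2 fold change was 0.41 over 947 windows, 534 positive and 400 negative, against 0.16 for the genes. In all, 8 windows rose and 3 fell (0.845% and 0.317%) beside 0.695% of all features in each direction, so the share that rose was near the background. Those counts came from the edgeR quasi-likelihood test with Benjamini-Hochberg adjustment, in which 211 windows had an unadjusted p under 0.05. DESeq2 called 93, of which 57 rose and 36 fell. The count of 11 by edgeR became 1 when any 1 big library was left out, 159 without small replicate 2, 94 without small replicate 4, and 0 with only these 2 groups in the fit. With 1 small library left, that library is assumed to vary like the other groups.

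The windows of URA3, RPL5 and THI72 were high in both small libraries and at most 8.56 CPM in the other 12. The URA3 window had 146 and 135 CPM in the small libraries and 0, 0.272 and 1.37 in big colonies (log2 7.93, SE 1.61, adjusted p = 0.0322 by edgeR), and log2 9.52 without big replicate 3. Its main end was 352 nt before the start codon. URA3, the orotidine decarboxylase gene, is deleted in this strain, and 1 to 84 tags were assigned to it in each library. The window of RPL5, a large-subunit ribosomal protein gene, had 78.8 and 67.3 CPM in small colonies and 1 tag in the 3 big libraries (ratio 656, counting interval 117 to 25920, adjusted p = 0.0203 by edgeR). The ratio was 402 without big replicate 2, and without big replicate 3, which held that tag, the bound was at least 152-fold. RPL5 itself did not pass (log2 -0.33, SE 0.65). The window of THI72, a thiamine-related transporter gene with a near-identical relative, had 45.9 and 63.4 CPM and no tags in big colonies (at least 194-fold higher, adjusted p = 0.0322 by edgeR, and at least 119-fold without big replicate 2); 30.6% of its tags were at A-rich positions.

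The other windows that rose, except that of AAH1, rested mainly on 1 of the 2 small libraries. The window of POP2, a deadenylase subunit gene of the Ccr4-Not complex, had 16.8 CPM in small replicate 2 and 286 in replicate 4, against 0, 0.543 and 1.71 in big colonies. The window of YSH1, the endonuclease gene of mRNA 3′ end cleavage, had 12.9 and 241 CPM, and that of SPO1, a meiotic gene, 9.69 and 125. In the YGL230C window the order was the other way, 153 and 5.39 CPM. Without replicate 4 the log2 fold changes of POP2, YSH1 and SPO1 were 4.36, 3.12 and 2.29 and no longer passed. Without replicate 2 that of YGL230C was 2.76 and no longer passed. The AAH1 window had 278 and 115 CPM against 20.9, 13.9 and 23.97 (log2 3.32, SE 0.78, adjusted p = 0.0431 by edgeR), with log2 2.47 without small replicate 2, and without A-rich positions it did not pass, at 4.49. AAH1, the adenine deaminase gene, itself was at 313 ± 73.5 CPM (SD, n = 2) in small and 207 ± 75.6 CPM (SD, n = 3) in big colonies (log2 0.60, SE 0.57).

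Lower in small colonies were the windows of TIP1, VAC7 and YHR007C-A. The TIP1 window, upstream of a cell wall mannoprotein gene, had 12.3, 16.6 and 14.7 CPM in big colonies and no tags in the 2 small libraries, at least 57.6-fold higher in big ones (adjusted p = 0.0292 by edgeR). Its level in the other 9 libraries was 4.88 to 25.7 CPM. The VAC7 window, upstream of a gene of vacuolar phosphoinositide synthesis, had 7.20, 20.1 and 17.1 CPM in big colonies and no tags in small ones (at least 59.7-fold, adjusted p = 0.0421 by edgeR). With replicate 4 left out these bounds were 7.59-fold and 7.86-fold. The YHR007C-A window had 48.0, 25.3 and 15.1 CPM in big colonies and 1 tag in the small libraries (ratio 342, counting interval 60.9 to 13550, adjusted p = 0.0117 by edgeR). Without replicate 4 it had no tag in small colonies, and the bound was at least 15.01-fold. This window was called both for fixed against unfixed particles and for small against big colonies. The 2 comparisons share no library, but both come from 1 fit with a shared estimate of the spread, so the calls are not independent.

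Changes of windows had correlations near 0 with those of their own genes and low ones with those of their neighbours. Over 896 windows with a tested gene, Pearson correlations of log2 fold changes were 0.004 for unfixed particles against Abs600 0.5, -0.048 between the densities, -0.017 for fixed against unfixed particles, 0.025 for big colonies against unsorted particles and 0.062 for small against big colonies. Over 875 windows with a tested neighbour they were 0.046, 0.046, 0.078, 0.023 and 0.126 in the same order. These are descriptions over windows of the same libraries. Among the 12 windows called between fixed and unfixed particles, the RPF1 window alone had a neighbour that passed the test as well; the snoRNA neighbour of ERG25 was not tested.

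Genes whose products limit upstream transcripts were read on their own strand in the same fit, from lists chosen with earlier results of these data known. The list of termination and decay factors has 25 genes, 24 of them tested. In unfixed particles against Abs600 0.5, 1 fell and 0 rose by edgeR (1.1% of all features fell and 0.649% rose; 6 of the list at an unadjusted p under 0.05, 2 called by DESeq2 and 6 by voom), with a list median of -0.71 against -0.09 for all genes. The gene that fell was AIR1, of the TRAMP complex that feeds RNA to the nuclear exosome, at 0.644 ± 0.301 against 25.2 ± 16.1 CPM (SD, n = 2 each; log2 -5.20, SE 1.27, adjusted p = 0.0445 by edgeR). In fixed against unfixed particles 2 rose, AIR1 (38.0 ± 30.0 CPM, SD, n = 3; log2 5.79, SE 1.26, adjusted p = 0.0124 by edgeR) and MTR4, the TRAMP helicase gene (2240 ± 600 against 260 ± 15.03 CPM; log2 3.11, SE 0.75, adjusted p = 0.0211). The list median there was 1.00 against 0.09, 3.04% of all features rose, and DESeq2 called 6 of the list and voom 9. None of the 24 passed in the other 3 comparisons by edgeR; at an unadjusted p under 0.05 there were 1, 0 and 3, DESeq2 called 0, 0 and 1, and voom 0, 0 and 3 (densities, big against unsorted, small against big).

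A further list held 36 chromatin factors known to restrict divergent or cryptic transcription, among them histone chaperones, Set2 and the Rpd3 complex. In the 5 comparisons 0% to 3.04% of all features rose and 0% to 2.01% fell by edgeR, and 0 of the 36 factors passed in any. At an unadjusted p under 0.05 there were 4, 1, 4, 0 and 5 of them; DESeq2 called 1, 0, 2, 0 and 1, and voom 4, 0, 4, 0 and 2, in the order of the correlations above. Their medians lay between -0.18 and 0.26. Of 13 general regulatory factors at promoters, 1 passed by edgeR, SPT15, the TATA-binding protein gene, and only in fixed against unfixed particles. It was at 115 ± 65.9 CPM (SD, n = 3) in fixed and 21.3 ± 1.41 CPM (SD, n = 2) in unfixed particles (log2 2.43, SE 0.66, adjusted p = 0.0408 by edgeR). In that comparison 3.04% of all features rose. In small against big colonies the median of that list was 1.03 against 0.16 for all genes, with 0 of 13 past the threshold, 2 at an unadjusted p under 0.05, and 2 called by DESeq2 and by voom. Whether these levels bear on the windows was not tested.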

How the data were processed

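The authors deposited counts of 3′ end tags for 542908 positions with their strand, 1 column per library and not normalized, going by the values; no molecular identifiers are described. Per the submitters' processing notes, CASAVA 1.8.2 and GSNAP were used with builds R64 and sacCer3; filters on positions and the treatment of duplicate reads are not given in the sources used here. Columns were tied to samples by title and barcode, except that of small replicate 4, which was tied by its replicate number and grouped by its title. The submitters excluded small replicates 1 and 3, and no main test uses them. Replicates of the particles and batch cultures are called biological in the series design; for small colonies it says replicates only, so those p-values measure the spread between these samples.

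The table's strand column was turned, since sense tags carried the opposite sign. Sense counts of 6002 genes (ORF and 400 nt after it) and opposite-strand counts of 2193 windows were fitted together in edgeR 4.0.16 (TMM, filterByExpr, robust quasi-likelihood test; 14 libraries in 6 groups, 8 residual degrees of freedom). Benjamini-Hochberg adjustment ran over 6474 tested features, 947 of them windows, with a threshold of 0.05. Each standard error is the absolute log2 fold change over the square root of F. CPM are computed from the deposited counts with TMM-scaled library sizes; summed shares use library totals. A window with 0 tags in a group is given as a bound against 3 tags over that group, and one with 1 to 3 tags as a ratio with a 95% counting interval. Counting error alone is covered. Windows named are the 12 highest by mean CPM and, per comparison and direction, up to 8 that passed, had at least 5 CPM on average in 1 group and whose libraries did not overlap between the groups; PLS1 is named as one of the 12. HIS3, LEU2, URA3, MET17 and STE3 come from marker lists. Members and lists were chosen with earlier results of these data known.

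The 5 comparisons share libraries: Abs600 0.5, unfixed, fixed unsorted and big libraries each enter 2 of them. The alternatives were DESeq2 1.42.0, limma 3.58.1 (voom with sample quality weights), no filter, fewer groups in the fit, 300 nt windows, positions between genes only, no A-rich positions, a replicate block and leaving out each library. Software was R 4.3.3, Python 3.11.15, pandas 2.3.3, numpy 2.4.6, scipy 1.17.1 and matplotlib 3.10.9.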

Additional observations from a re-analysis of the deposited data

Results flagged for a closer look

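The 2 small libraries that the submitters excluded, and that enter no comparison here, had window tags above the level in the batch cultures. Small replicate 1 had 14040 window tags per 1000000 library tags and small replicate 3 had 15340, against at most 4012 in the 4 batch libraries. Replicate 1 rested on 166 window tags of 11821 tags in all, and replicate 3 on 12880 of 839550. In both, window tags ended on an A in the genome more often (43.4% and 22.7%) than in the 12 libraries of the other groups, which reached 14.2%. Their part in the results was not tested beyond the fit with all 4 small replicates, in which 7 of the 11 calls between small and big colonies passed.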

How the results depend on the processing

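The number of windows called depends on the processing. None of the 25 calls changed sign under any alternative run. The libraries of the compared groups did not overlap in these windows, so a sign could hardly turn and this adds no support. For unfixed particles against Abs600 0.5 the count of 2 became 31 with DESeq2, 6 without the filter, 82 with only these 2 groups in the fit, 39 without the small libraries, 136 with voom and sample quality weights, 1 each with 300 nt windows, positions between genes or no A-rich positions, and 0 when any 1 library was left out. The log2 ratio of sums, 1.47, was 1.21 between genes, 1.65 without A-rich positions and 1.24 with TMM scaling. For fixed against unfixed particles the count of 12 became 46 with DESeq2 (9 up, 37 down), 69 with 2 groups, 64 without the small libraries, 114 with voom, 4 with 300 nt windows, 5 between genes and 0 to 4 with 1 library left out; the log2 ratio, -0.91, was -0.57 between genes. For small against big colonies the count of 11 became 93 with DESeq2 (57 up, 36 down), 33 without the filter, 0 with 2 groups, 125 with voom, 6 with 300 nt windows and 1 to 159 with 1 library left out; the log2 ratio, 1.53, was 0.78 to 2.02 with 1 library left out. Between the densities the count of 0 became 1 with DESeq2 and 4 with voom, and the log2 ratio, 0.15, was -0.16 with 300 nt windows, -0.078 between genes and 0.31 without A-rich positions. Big against unsorted particles stayed at 0 in every alternative run. The cause of these differences was not tested.

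DESeq2 scaling shifted the median of all features from 0 to 0.15 (unfixed against Abs600 0.5), from 0.03 to -0.11 (fixed against unfixed) and from 0.19 to 0.38 (small against big). With the replicate number as a block, the counts were 50 (unfixed against Abs600 0.5), 2 (densities), 33 (fixed against unfixed) and 0 (big against unsorted). Same-numbered libraries did not deviate together throughout (correlations of -0.198, 0.006 and 0.25 for big against unsorted, -0.17 between the densities), so the numbers are not shown to pair samples. Crossing the numbers between the densities, chosen after seeing the data, gave 10. No block could be fitted for small against big colonies, which share only replicate number 2. Depth limits single windows: at a median of 0.981 CPM most hold a few tags per library.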

Other observations

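Windows that reach into the neighbour and windows that do not differed in how they followed the groups. The 148 windows with a gap under 200 nt had 6.28 ± 0.834 CPM per window (SD, n = 2) in unfixed particles, against 1.83 ± 0.227 (SD, n = 2) at Abs600 0.5 and 2.33 ± 0.372 (SD, n = 3) in fixed particles. The 1250 windows with a gap of 200 nt to under 500 nt had 4.67 ± 0.678 in unfixed particles against 1.87 ± 0.172 at Abs600 0.5. The 795 windows with a gap of at least 500 nt, which lie wholly between genes, had 3.22 ± 0.572 against 1.67 ± 0.266. In small colonies the order was the other way, with 3.32 ± 1.88, 5.17 ± 1.18 and 5.70 ± 1.96 CPM per window (SD, n = 2 each) from the shortest gap to the longest, and SDs that overlap. Replicate 2 alone had 1.99, 4.335 and 4.317, and replicate 4 had 4.645, 6.01 and 7.09. Without replicate 4 the longest gap was thus not above the middle class. The differences between these means were not tested.

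The 93 windows behind a tRNA gene had 2.12 ± 0.361 CPM per window at Abs600 0.5 and 3.53 ± 1.26 in unfixed particles (SD, n = 2 each). The 14 behind a snoRNA gene had 0.833 ± 0.458 and 3.12 ± 1.21 in the same groups and 11.9 ± 3.74 in small colonies (SD, n = 2 each). Only 5 of these 14 were tested. Among them the ERG25 window had 112 CPM in small replicate 2 and 14.3 in replicate 4, so that window holds part of the mean in small colonies. Over all 14 windows the 2 small libraries had 9.207 and 14.49 CPM per window, against at most 3.975 in a library of the other groups. Counted one by one, windows with a mean of at least 20 CPM numbered 30 in each batch group, 104 in unfixed particles, 47 in fixed particles, 44 in big colonies and 134 in small colonies. Those with at least 20 CPM in every library of the group numbered 18 and 20 in the batch groups, 54 in unfixed particles, 24 in fixed particles, 18 in big colonies and 22 in small colonies.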
